A study of Mus musculus with 9 samples.

Results

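The genes described here are 10 genes of cartilage: the transcription factors Sox9, Sox5 and Sox6, the secreted signal Ihh, and the matrix genes Acan, Hapln1, Chad, Comp, Matn1 and Matn3. They were taken by symbol, and all 10 of them had a row in a table that names 22354 gene symbols. A symbol with more than 1 row was represented by its brightest row, by the mean of the 9 arrays. The signals came from tibiae of 9 female mice, measured on GeneChip Mouse Gene 2.0 ST arrays with 3 arrays per group, and are on a log2 scale. The Control group had neither fracture surgery nor NSAID. The Active group had a tibia fracture and carprofen, an NSAID that blocks the COX enzymes, at ZT13, the beginning of the night when mice are awake. The Resting group had the same fracture and the same drug at ZT2, early in the light phase. Both fractured groups got 20 mg/kg under the skin for 3 days. The mice were wild type and, by the methods, of the melatonin-deficient strain C57BL/6j. The labels give an age of 2 months, and the methods give 4 months for the study's first experiment. Fracture tissue was collected at ZT6 on day 3, so the time since the last dose exceeded 18 hours for Active mice and 30 hours for Resting mice. The methods describe the sample as the middle portion of the fractured tibia with its callus and hematoma, which also holds bone, marrow and blood. They do not say which portion of the unfractured tibia was taken from Control mice. A difference in the portion sampled therefore cannot be told apart from other differences between Control and fractured mice. The titles of the control arrays carry the word hematoma as well, although the same samples are labelled as unfractured. As Control mice had no surgery, with its anaesthesia and buprenorphine, and no carprofen, the effects of fracture and drug cannot be told apart in a comparison with it. In whole tissue, fewer cells of a type and less RNA per cell cannot be told apart either.

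Cartilage is a matrix of fibrils and hydrated proteoglycan made by chondrocytes. SOX9 is the factor that commits cells to this fate, and SOX5 and SOX6, which have no activation domain of their own, bind beside it at enhancers of matrix genes such as Col2a1 and Acan. Aggrecan, the product of Acan, is a large proteoglycan that binds hyaluronan with the help of the link protein HAPLN1, while chondroadherin, COMP and the matrilins tie collagen fibrils to each other and to cells. IHH is released by chondrocytes that are about to enlarge, and it sets the pace of their maturation together with PTHrP. In a fracture that is not rigidly fixed, callus cells form cartilage that is later replaced by bone.

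Of the 10 genes, 2 differed from Control mice by the test, and they were the same genes in both fractured groups: Sox6 and Chad fell, by about 1 and about 2 log2 units. Groups were compared with limma, p-values were adjusted over all 24367 rows of the table by the Benjamini-Hochberg method, and a gene is called at an adjusted p under 0.05. Active against Control gave 0 higher and 2 lower calls among the 10 genes (20%). Of all rows, 23.9% were called in that comparison (11.8% higher and 12.1% lower). Resting against Control also gave 0 higher and 2 lower calls (20%), while 19.1% of all rows were called (9.08% higher and 10% lower). The share of the cartilage genes was thus near that of all rows, and the result lies in which of them differed and by how much rather than in their number. The same was true of groups that do not overlap, which was the case for 3 genes in Active against Control (0 above and 3 below) and 4 in Resting against Control (2 above and 2 below), where 36.5% (18.9% above and 17.6% below) and 35.3% (17.6% above and 17.8% below) of all rows had no overlap. At an unadjusted p under 0.05, 4 of the 10 genes passed in each of these comparisons, against 33.7% and 30.1% of all rows, and with a difference of at least 1.5-fold as well, 3 passed in each, against 16.8% and 14.3%. The median log2 difference of the 10 genes was -0.065 for Active and -0.029 for Resting, against 0.025 and 0.023 over all rows.

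Windows at the start sites of Sox6 and Chad are shown because these genes carry the difference, with that of Acan, a textbook target of the SOX factors, beside them. They run from 250 bases before to 50 bases after a RefSeq transcript start in GRCm38.p6, 5′ to 3′ on the strand of the gene. Windows were found for 8 of the 10 genes, in all 13 windows, of which 6 belong to Sox6. Capitals mark matches to 4 motifs or their reverse complements. The core motifs of SOX factors were searched as ACAAT and as ACAAAG, whose matches cannot overlap each other on a strand. TATAAA was searched as the TATA box. GGGCGG was searched as the GC box, whose reverse complement reads CCGCCC. The Chad window lies on the plus strand at chr11:94564797-94565096, the Sox6 window nearest the 5′ end of its gene on the minus strand at chr7:116038695-116038994, and the Acan window on the plus strand at chr7:79052976-79053275.
Chad: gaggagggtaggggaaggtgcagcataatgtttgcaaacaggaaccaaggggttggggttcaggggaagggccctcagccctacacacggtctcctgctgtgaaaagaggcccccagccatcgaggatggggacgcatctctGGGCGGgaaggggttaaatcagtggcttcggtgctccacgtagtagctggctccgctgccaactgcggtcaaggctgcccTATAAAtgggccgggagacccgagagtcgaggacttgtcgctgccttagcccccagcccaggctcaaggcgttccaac
Sox6: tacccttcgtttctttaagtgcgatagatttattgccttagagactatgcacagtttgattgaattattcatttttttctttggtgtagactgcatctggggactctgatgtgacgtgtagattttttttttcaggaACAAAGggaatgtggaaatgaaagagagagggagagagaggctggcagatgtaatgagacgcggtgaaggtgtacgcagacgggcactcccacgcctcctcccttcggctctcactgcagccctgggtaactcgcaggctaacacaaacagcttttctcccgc
Acan: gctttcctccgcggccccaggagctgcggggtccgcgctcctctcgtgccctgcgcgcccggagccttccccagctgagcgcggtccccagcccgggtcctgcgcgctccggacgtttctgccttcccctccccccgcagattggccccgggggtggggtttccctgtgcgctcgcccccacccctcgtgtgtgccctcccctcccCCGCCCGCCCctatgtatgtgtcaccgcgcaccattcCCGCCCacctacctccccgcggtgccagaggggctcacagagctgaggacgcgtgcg
The Chad window holds a TATAAA 28 bases upstream of the start site and a GGGCGG 108 bases upstream. The Sox6 window holds an ACAAAG 113 bases upstream and none of the other motifs. The Acan window holds 3 matches to the GC box, of which those at 44 and 40 bases upstream overlap, and no match to either SOX motif or to the TATA box. Of the 13 windows, 6 hold ACAAT, 5 (all of Sox6) hold ACAAAG, 3 hold TATAAA and 6 hold GGGCGG. Among all 32851 windows of this length, ACAAT is in 31.0%, ACAAAG in 18.7%, TATAAA in 13.6% and GGGCGG in 35.7%. A match describes letters only, and the array does not tell which start site a transcript came from.

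Among the transcription factors, Sox6 fell in both fractured groups, while Sox9 and Sox5 did not pass the test. Sox6 had log2 signals of 9.36, 9.63 and 9.51 in Control mice, 8.35, 8.45 and 8.32 in Active mice, and 8.33, 8.73 and 8.17 in Resting mice. The 6 fractured arrays were all below the 3 control arrays, and the highest of them was Resting replicate 2. Relative to Control mice, Sox6 fell by 1.13 on the log2 scale in Active mice (SE 0.14, adjusted p = 0.00024 from limma), a 2.19-fold lower signal. In the Resting group it fell by 1.09 (SE 0.14, adjusted p = 0.00041 from limma), or 2.13-fold. With 3 arrays against 3, the smallest p of an exact two-sided permutation test is 0.1, the value that it gave for Sox6 and for Chad in both of these comparisons.

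**Figure D1:**
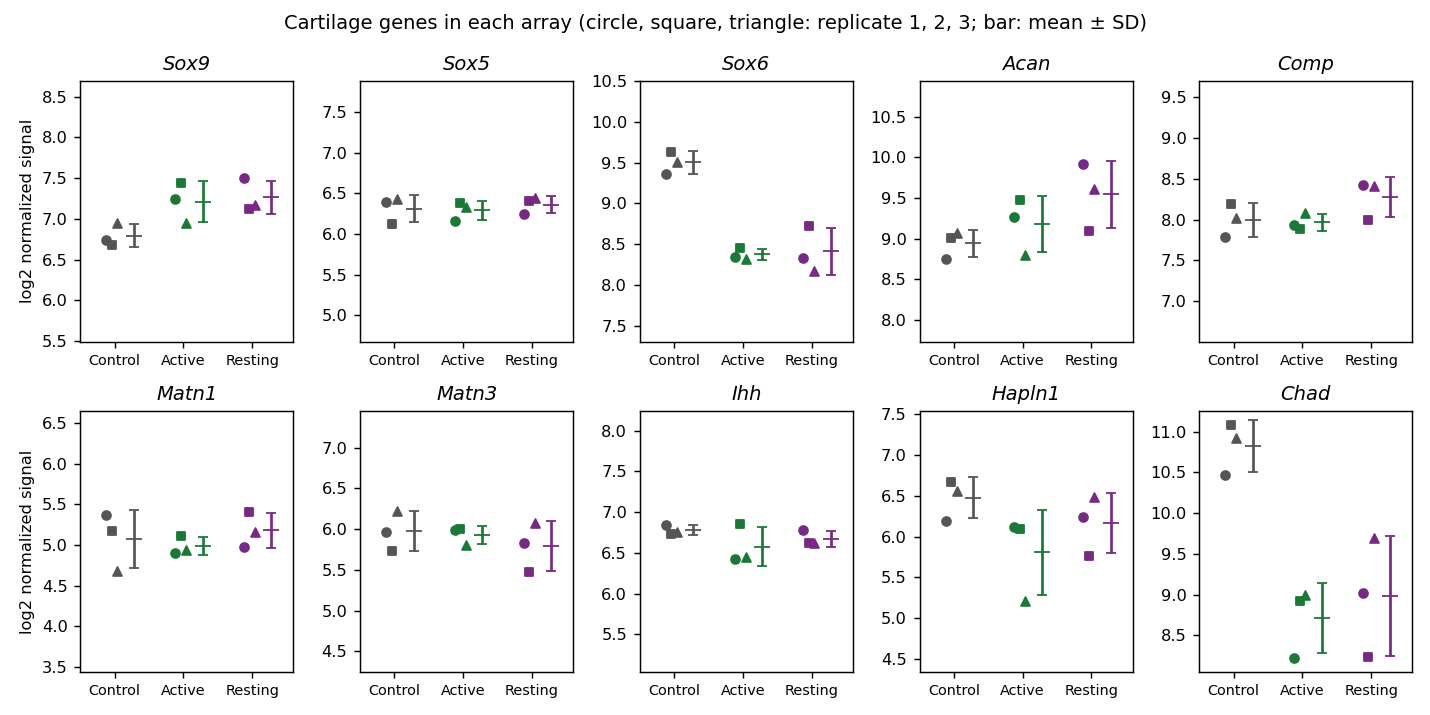
Log2 normalized signal of each of the 10 cartilage genes in the 9 arrays, with 1 panel per gene, groups on the x axis and the mean ± SD (n = 3) beside the points; each y axis spans the same number of log2 units. Sox6 and Chad sit lower in all 6 fractured arrays than in the 3 control arrays, whereas the other panels show smaller shifts.

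Sox9 had signals of 6.74, 6.68 and 6.95 in Control mice, 7.25, 7.44 and 6.95 in Active mice, and 7.50, 7.12 and 7.17 in Resting mice. The Resting arrays were all above the Control arrays, whereas Active replicate 3 lay just within their range. The log2 difference from Control mice was 0.42 for Active (SE 0.15, adjusted p = 0.071 from limma) and 0.47 for Resting (SE 0.15, adjusted p = 0.054 from limma), and neither passed the test. Without Active replicate 3, the Active difference was 0.55 (adjusted p = 0.029 from limma). A comparison chosen after these values were seen, the mean of both fractured groups against Control, gave a log2 difference of 0.45 for Sox9 (SE 0.13, adjusted p = 0.029 from limma), in a contrast that calls 25.8% of all rows. Sox5 ranged from 6.12 to 6.43 in Control mice, from 6.16 to 6.38 in Active mice and from 6.24 to 6.44 in Resting mice. Its 3 groups overlapped throughout, with log2 differences from Control of -0.021 and 0.048.

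Of 16 other SOX factors, 2 rose in Active mice and 1 of these rose in Resting mice, shares near the 11.8% and 9.08% of all rows called higher. They were Sox7 (log2 difference 0.56 for Active and 0.50 for Resting) and Sox17 (0.65 for Active), both known from blood vessel endothelium. Sox17 in Resting mice had a log2 difference of 0.44 (adjusted p = 0.079 from limma), and the call of Sox7 in that group was lost when any 1 of 4 arrays was left out. The list had a median log2 difference of 0.12 for Active and 0.085 for Resting, against 0.025 and 0.023 over all rows. Of 14 further regulators of chondrocytes, 5 rose in Active mice and 2 in Resting mice, beside those same shares of all rows, and the list had a median log2 difference of 0.23 and 0.20. Arid5b, a partner of SOX9, rose by 0.79 (SE 0.11, adjusted p = 0.00050 from limma) and 0.74 (SE 0.11, adjusted p = 0.0010 from limma). Frzb, a secreted Wnt inhibitor of cartilage, rose by 0.88 and 1.06, but its Active call was lost when any 1 of the 6 arrays compared was left out. Its Resting call was lost under 4 of 17 alternatives, with an adjusted p of up to 0.21.

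SOX6 is also known from red cell precursors and from muscle, so markers of both were read in the same arrays. The mean log2 signal of 9 erythroid genes ran from 10.21 to 10.64 in the Control arrays, from 6.32 to 7.57 in the Active arrays and from 7.51 to 8.02 in the Resting arrays. All 9 of these genes fell in both fractured groups. Resting replicate 2, the highest fractured array for Sox6, was also the highest fractured array for this mean. Active replicate 2, the highest of its group for Sox6 (8.45), had instead the lowest erythroid mean of the 9 arrays (6.32). In Active against Resting, the erythroid list had a median log2 difference of -1.11, whereas Sox6 had a difference of -0.037. Their part in the Sox6 difference was not tested. The 11 skeletal muscle markers had array means of 10.95 to 11.35 in Control, 11.53 to 11.74 in Active and 11.14 to 11.49 in Resting, where the Resting arrays overlapped with the Control arrays; 5 of the 11 rose in Active mice and 0 in Resting mice. Of the other markers of marrow, 9 of 9 neutrophil genes fell in Active and 3 in Resting mice, and 7 of 8 B lymphocyte genes fell in each. Of 4 Schwann cell genes, 2 rose and 1 fell in Active and 1 rose and 1 fell in Resting mice. Beside these marker counts, 11.8% of all rows were called higher and 12.1% lower in Active against Control. In Resting against Control, 9.08% were called higher and 10% lower. The 3 named genes whose signal ran most like that of Sox6 over the 9 arrays were Kmo (Pearson r 0.99), Arl4a (0.98) and Mns1 (0.98). Within groups, after the group means were removed, the correlations of these genes with Sox6 were 0.93, 0.79 and 0.81. The 3 genes were picked by their correlation over these 9 arrays, which includes the deviations within groups. High values within groups therefore follow in part from the choice. These are descriptions over 9 arrays of the same 3 groups.

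**Figure D2:**
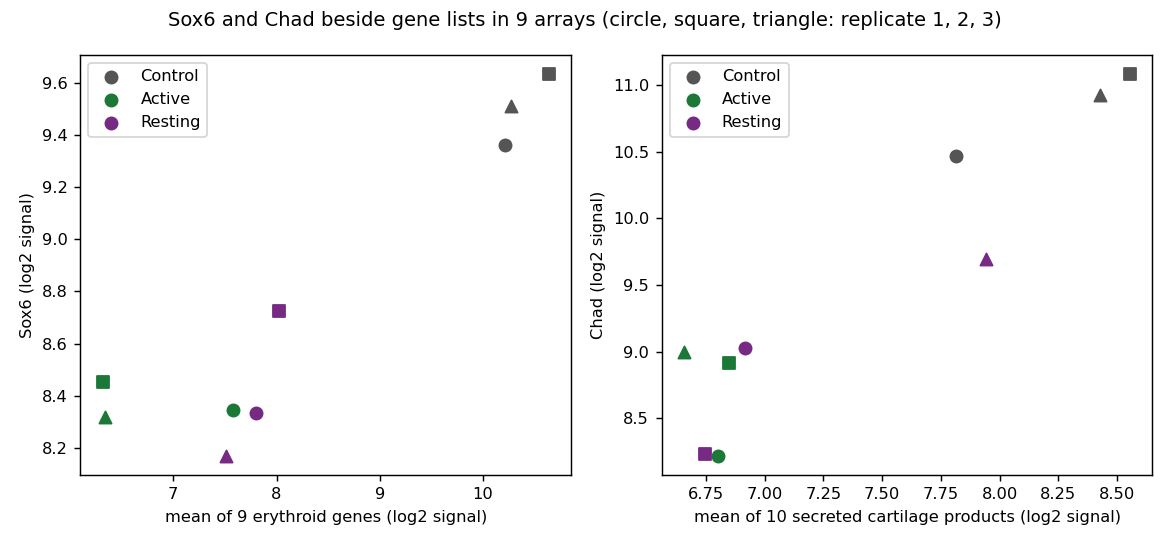
Left, the log2 signal of Sox6 against the mean log2 signal of 9 erythroid genes; right, the log2 signal of Chad against the mean log2 signal of 10 other secreted cartilage products; each point is 1 of 9 arrays, coloured by group and shaped by replicate. Control arrays are the highest 3 for Sox6 and for Chad, and Resting replicate 3 is the fractured array highest on both axes of the right panel (Chad 9.70, list mean 7.94).

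The signal Ihh did not pass the test in any comparison. It read 6.84, 6.73 and 6.76 in Control mice, 6.42, 6.85 and 6.45 in Active mice, and 6.78, 6.62 and 6.62 in Resting mice. Active replicates 1 and 3 were the lowest of the 9 arrays, while Active replicate 2 was the highest. The log2 difference from Control was -0.20 for Active (SE 0.13, adjusted p = 0.32 from limma) and -0.11 for Resting (SE 0.13, adjusted p = 0.65 from limma). Without Active replicate 2 the Ihh difference for Active was -0.34 (adjusted p = 0.049 from limma). Of 13 other genes of hedgehog and PTHrP signalling, 2 rose and 0 fell in Active mice, and 2 rose and 1 fell in Resting mice. With 23.9% and 19.1% of all rows called, these counts are near the background, and the list had a median log2 difference of 0.14 and 0.18. Gli3, a transcription factor at the end of the pathway that mostly acts as a repressor when the ligand is absent, had 6.07, 5.96 and 5.28 in Control, 7.16, 7.28 and 7.35 in Active, and 7.13, 6.72 and 6.94 in Resting. It rose by 1.49 (SE 0.19, adjusted p = 0.00026 from limma) in Active and by 1.16 (SE 0.19, adjusted p = 0.0017 from limma) in Resting. Pthlh, which encodes PTHrP, rose by 0.58 in Active mice (adjusted p = 0.0078 from limma) and had a difference of 0.36 in Resting mice (adjusted p = 0.088 from limma). The remaining calls were in Resting mice, where Smo, the signal transducer, rose by 0.43 and Hhip, a decoy for the ligand, fell by 0.60. Hhip had a difference of -0.45 in Active mice (adjusted p = 0.065 from limma). Ptch1 and Gli1, which are among the targets of the pathway, had log2 differences from Control between -0.22 and 0.073, none of which passed.

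Of the matrix genes, Chad had the largest difference of the 10 genes, and it fell in both fractured groups. Chad encodes chondroadherin, a leucine-rich repeat protein that binds collagen and cell-surface integrins. Its signals were 10.47, 11.09 and 10.92 in Control mice, 8.22, 8.92 and 8.998 in Active mice, and 9.02, 8.23 and 9.70 in Resting mice. Every fractured array was below every control array, and Resting replicate 3 was the fractured array nearest to them. The group means were 10.83 ± 0.32 (SD, n = 3) in Control, 8.71 ± 0.43 (SD, n = 3) in Active and 8.98 ± 0.73 (SD, n = 3) in Resting. Chad fell by 2.11 on the log2 scale in Active mice (SE 0.33, adjusted p = 0.00093 from limma), a 4.33-fold lower signal. In the Resting group it fell by 1.84 (SE 0.33, adjusted p = 0.0029 from limma), or 3.58-fold, and without Resting replicate 3 by 2.20 (adjusted p = 0.0012 from limma). With the methods' t-test, which uses the spread of the 6 arrays compared alone, the adjusted p of the Resting difference was 0.10. The named genes with the most similar course over the 9 arrays were Prg2 (Pearson r 0.98, and 0.89 within groups), which encodes a granule protein of eosinophils, Serpinb2 (0.98 and 0.86) and Kif20b (0.97 and 0.85). As for Sox6, the values within groups follow in part from picking these genes by correlation over the same arrays. Chad belongs with the small leucine-rich proteoglycans in the wider sense. Of 13 other genes of that family, 8 rose and 0 fell in each of the 2 comparisons with Control. Of all rows, 11.8% (Active) and 9.08% (Resting) were called higher. The family list had a median log2 difference of 1.02 for Active and 0.93 for Resting, against 0.025 and 0.023 over all rows. Aspn, Lum, Bgn, Dcn, Fmod, Kera, Ogn and Podn rose in both, with Aspn (asporin) at 2.72 and 2.66 and Lum (lumican, which organises collagen fibrils) at 2.04 and 2.13 on the log2 scale.

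Acan and Hapln1, whose products form 1 complex with hyaluronan, had differences of opposite sign, none of which passed the test. Acan had 8.75, 9.01 and 9.07 in Control mice, 9.27, 9.47 and 8.80 in Active mice, and 9.92, 9.10 and 9.62 in Resting mice. The Resting arrays were all above the Control arrays, Resting replicate 2 only slightly, and the Active arrays overlapped with them. The log2 difference of Acan from Control was 0.60 for Resting (SE 0.22, adjusted p = 0.083 from limma) and 0.24 for Active (SE 0.22, adjusted p = 0.51 from limma). Without Resting replicate 2 the Resting difference of Acan was 0.82 (adjusted p = 0.021 from limma). Hapln1 had 6.20, 6.67 and 6.56 in Control mice, 6.12, 6.09 and 5.21 in Active mice, and 6.24, 5.76 and 6.49 in Resting mice. All Active arrays were below the Control arrays, with Active replicate 3 far below the other two, and the Resting arrays overlapped with Control. The log2 difference was -0.67 for Active (SE 0.26, adjusted p = 0.089 from limma), -0.37 when Active replicate 3 was left out, and -0.31 for Resting (SE 0.26, adjusted p = 0.48 from limma). Of the 6 other hyalectan and link protein genes, 1 rose in each comparison, Vcan, where 11.8% (Active) and 9.08% (Resting) of all rows were called higher. The second named, the link protein gene Hapln4, had log2 differences of 0.35 (adjusted p = 0.10 from limma) and 0.39 (adjusted p = 0.084 from limma). Vcan encodes versican, a relative of aggrecan found in provisional matrix, and its signals went from 6.16, 6.37 and 6.54 in Control to 8.88, 8.68 and 9.16 in Active and 8.72, 8.75 and 9.09 in Resting. Vcan rose by 2.55 (SE 0.16, adjusted p = 3.6e-06 from limma) in Active and by 2.50 (SE 0.16, adjusted p = 8.8e-06 from limma) in Resting.

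Genes that build and cut aggrecan were read beside these, in comparisons that call 23.9% (Active) and 19.1% (Resting) of all rows. Of 14 genes of chondroitin sulfate synthesis, which put the charged chains on aggrecan and on versican alike, 5 rose and 2 fell in Active mice and 5 rose and 1 fell in Resting mice, with medians over the list of 0.27 and 0.34 on the log2 scale. Csgalnact1, which starts the chain, rose by 1.12 and 0.92, and Ugdh, which makes the sugar donor, by 0.80 and 0.80. Chst3, a chondroitin sulfotransferase, fell by 1.26 (SE 0.10, adjusted p = 1.2e-05 from limma) and by 1.11 (SE 0.10, adjusted p = 4.5e-05 from limma). Chsy1, Chsy3 and Papss1 rose in both comparisons by 0.46 to 0.61, but the call of Chsy1 was lost under 6 (Active) and 4 (Resting) of 17 alternatives, and that of Chsy3 under 3 and 2. Of 6 proteases that cut aggrecan or matrilins, 3 rose in Active mice and 4 in Resting mice, with medians of 0.54 and 0.74. Adamts4, an aggrecanase, rose by 2.39 (SE 0.15, adjusted p = 4.6e-06 from limma) and 2.57 (SE 0.15, adjusted p = 7.5e-06 from limma), Adamts1 by 1.25 and 1.40, and Adamts9 by 0.70 and 0.84. Adamts5, the other main aggrecanase of mouse cartilage, rose in Resting mice (0.65, adjusted p = 0.019 from limma) and had a difference of 0.38 in Active mice (adjusted p = 0.13 from limma).

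Comp, Matn1 and Matn3, which encode adaptor proteins of the collagen network, did not pass the test in any comparison. Comp had 7.78, 8.19 and 8.01 in Control mice, 7.94, 7.88 and 8.08 in Active mice, and 8.42, 7.998 and 8.41 in Resting mice. Resting replicates 1 and 3 were the highest of the 9 arrays, and all groups overlapped. The log2 difference of Comp from Control was -0.029 for Active (SE 0.15) and 0.28 for Resting (SE 0.15, adjusted p = 0.23 from limma). Matn1 ran from 4.68 to 5.37 in Control, from 4.91 to 5.11 in Active and from 4.98 to 5.40 in Resting, and it was the only one of the 10 genes among the 40% of rows with the lowest mean. Matn3 ran from 5.73 to 6.22, from 5.80 to 6.003 and from 5.47 to 6.07 in the same order. The log2 differences of both genes from Control lay between -0.18 and 0.11. Of 6 other matrilins and thrombospondins (COMP is itself a thrombospondin), 4 rose in each comparison with Control and Thbs1 and Matn4 did not pass. Of all rows, 11.8% (Active) and 9.08% (Resting) were called higher. The list had a median log2 difference of 1.43 for Active and 1.35 for Resting, against 0.025 and 0.023 over all rows. Thbs2 rose by 2.55 and 2.57, Thbs4, a thrombospondin of tendon and muscle, by 1.91 and 2.18, Matn2 by 1.58 and 1.47, and Thbs3 by 1.27 and 1.22. The 3 tendon markers rose in both comparisons, with array means of 5.68 to 5.97 in Control, 7.02 to 7.38 in Active and 6.97 to 7.47 in Resting, and 4 of 5 fibroblast markers rose in both. The part of these cells in the values of Thbs4, Comp or the leucine-rich proteoglycans was not tested.

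**Figure D3:**
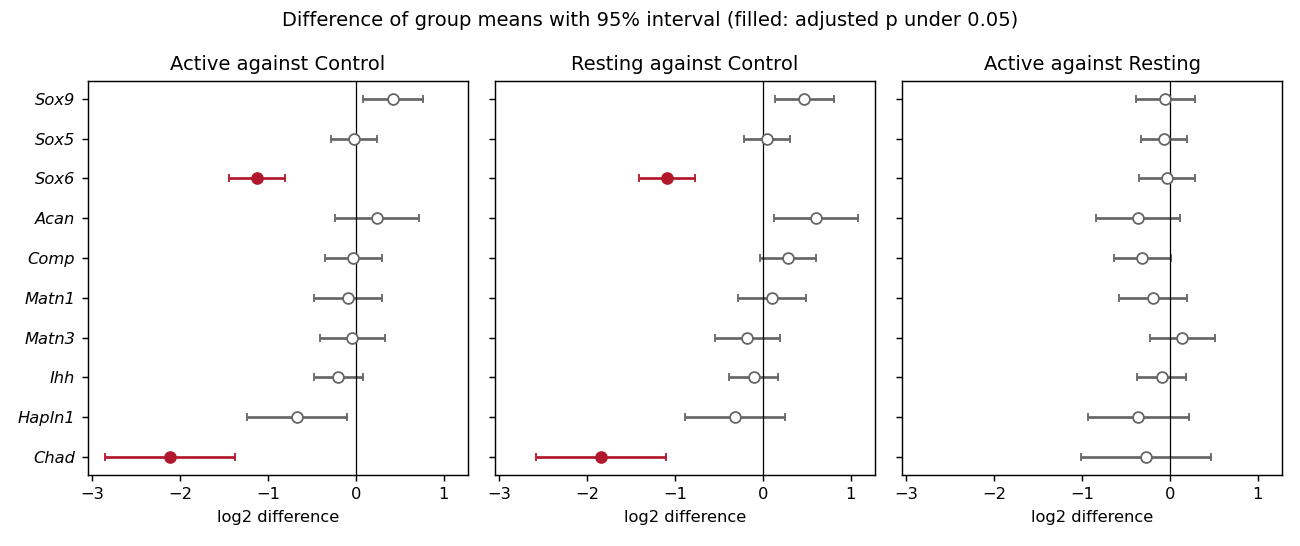
Log2 difference of group means for the 10 genes in the 3 comparisons, with the 95% interval of the difference from limma; filled points have an adjusted p under 0.05 over 24367 rows. Sox6 and Chad are filled and lie below 0 in both comparisons with Control mice, and no point is filled for Active against Resting.

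Between the fractured groups, none of the 10 genes differed by the test, and limma called 0 of 24367 rows. At an unadjusted p under 0.05, limma gave 0 of the 10 genes and 6.11% of all rows, and 0.973% of all rows also differed by at least 1.5-fold. For 0 of the 10 genes did the Active and Resting arrays not overlap, against 9.94% of all rows (5.16% above and 4.77% below). The methods' t-test also called 0 of the 10 genes at an adjusted p under 0.05. The log2 difference of Active minus Resting was negative for 9 of the 10 genes, Matn3 being the exception, with a median of -0.14 against -0.0055 over all rows. The intervals show what sizes remain possible at 3 arrays per group. The 95% interval was -0.36 to 0.28 for Sox6, -0.39 to 0.29 for Sox9 and -0.33 to 0.19 for Sox5. It was -0.84 to 0.12 for Acan, -0.64 to 0.010 for Comp, and -0.93 to 0.21 for Hapln1. For Chad it was -1.01 to 0.46, the widest of the 10 genes, and the sign of the Chad difference turned to 0.082 without Resting replicate 3. Arrays varied within each group. In the Resting group, replicate 2 was the lowest for 7 of the 10 genes, and replicate 1 was the highest for Sox9, Acan, Comp and Ihh. In the Active group, replicate 2 was the highest for 7 of the 10 genes and replicate 3 the lowest for 5. Control replicate 1 was the lowest of its group for 5. Resting replicate 1 also had the highest mean over 9 osteoblast and osteocyte markers (9.35, against 8.43 and 8.75 in replicates 2 and 3), and the part of that difference in the cartilage genes was not tested. Of these 9 markers, 1 rose and 1 fell in Active against Control, and 3 rose and 0 fell in Resting against Control. Those comparisons called 23.9% and 19.1% of all rows.

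Other products of cartilage separated into those that fell with Chad and those that did not. Of 10 other secreted cartilage products, 7 fell in each comparison with Control mice, where 12.1% (Active) and 10% (Resting) of all rows were called lower. The list had a median log2 difference of -1.65 for Active and -1.27 for Resting, against 0.025 and 0.023 over all rows. Those that fell were Lect1 (now Cnmd, chondromodulin), 3110079O15Rik (now Snorc), Ucma, Cytl1, Mia, Clec3a and Scrg1. Mia, a small protein secreted by chondrocytes, had 8.50, 8.58 and 8.57 in Control, 4.72, 5.17 and 5.23 in Active, and 5.32, 5.19 and 7.09 in Resting. It fell by 3.51 (SE 0.40, adjusted p = 0.00011 from limma) in Active and fell by 2.68 (SE 0.40, adjusted p = 0.00090 from limma) in Resting. Cytl1 had 10.40, 11.33 and 11.56 in Control, 7.87, 8.10 and 7.68 in Active, and 7.20, 7.64 and 10.58 in Resting. Resting replicate 3 thus lay inside the range of the Control arrays for Cytl1, as it did for Clec3a, and it was the highest of its group for 8 of the 10 products. Over the 10 products, the array means were 7.81, 8.56 and 8.43 in Control, 6.80, 6.85 and 6.66 in Active, and 6.92, 6.75 and 7.94 in Resting. In Resting against Control, Cytl1 fell by 2.62 with that array and fell by 3.68 without it. Clec3a fell by 1.61 with it and fell by 2.19 without it. Both genes were called either way, but each call was lost when any 1 of 4 other arrays was left out. Of 17 alternatives, the Resting call was lost under 8 for Cytl1 and under 7 for Clec3a. The Resting call of 3110079O15Rik was lost under 6 of 16 alternatives, with an adjusted p of up to 0.18. Control replicate 1 was the lowest of its group for 9 of the 10 products. Cilp was the 1 product that rose, in Active mice (1.19, adjusted p = 0.048 from limma), and Prg4, which encodes the joint lubricant lubricin, did not pass, with Resting replicate 3 (11.83) and Control replicate 1 (8.79) at the ends of its range.

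**Figure D4:**
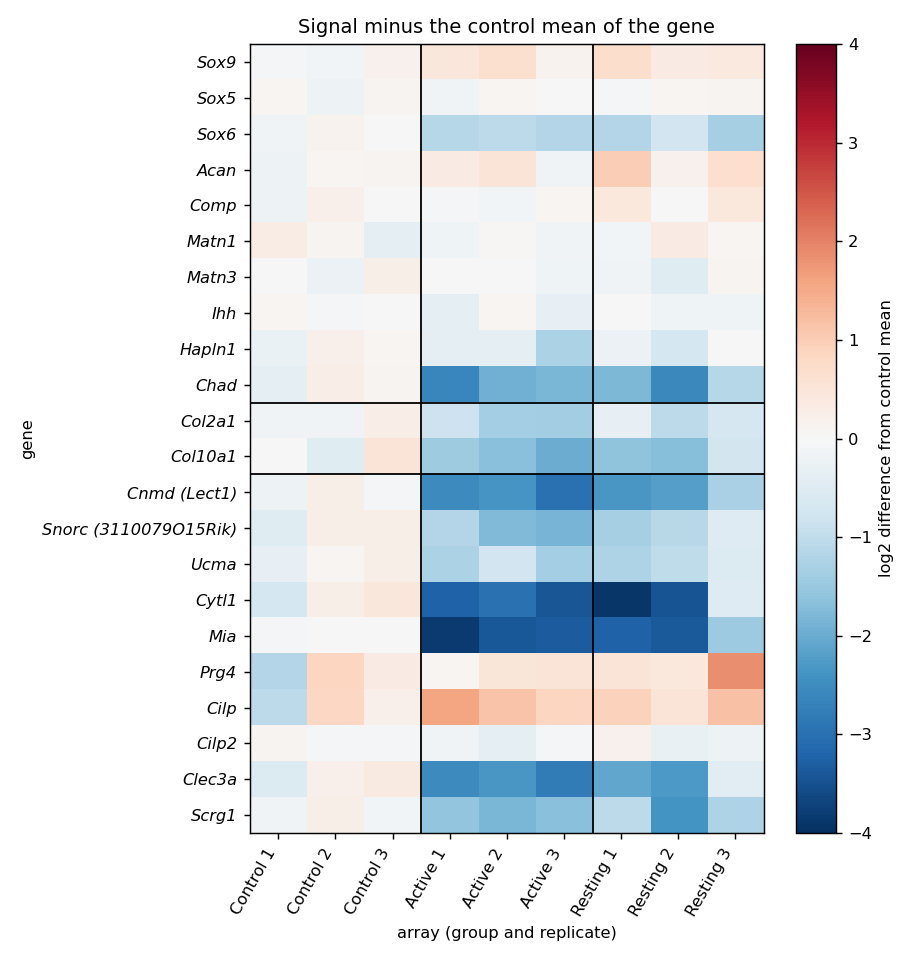
Log2 signal minus the control mean of each gene (colour scale from -4 to 4) for the 10 cartilage genes, Col2a1, Col10a1 and the 10 other secreted cartilage products, in rows, over the 9 arrays, in columns. Cytl1 and Mia are darkest in the Active arrays and in Resting replicates 1 and 2, and Resting replicate 3 is paler than the rest of its group for the products that fell, Scrg1 excepted.

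Of 7 cartilage collagens, 2 fell in each comparison and 1 rose in Resting mice, where 12.1% and 10% of all rows were called lower. The list had a median log2 difference of -0.10 for Active and 0.066 for Resting. Col2a1, the main fibril collagen of cartilage, had 8.61, 8.61 and 8.999 in Control, 7.90, 7.37 and 7.34 in Active, and 8.42, 7.69 and 8.08 in Resting. It fell by 1.20 in Active (SE 0.21, adjusted p = 0.0016 from limma) and by 0.67 in Resting (SE 0.21, adjusted p = 0.044 from limma). The Resting call of Col2a1 was lost under 9 of 17 alternatives, among them when any 1 of 5 arrays was left out. Col10a1, the collagen of enlarged chondrocytes, fell by 1.70 (SE 0.29, adjusted p = 0.0016 from limma) and 1.35 (SE 0.29, adjusted p = 0.0080 from limma). Col11a1 rose in Resting mice (1.04, adjusted p = 0.018 from limma) and had a difference of 0.73 in Active mice (adjusted p = 0.070 from limma). The genes for collagen IX (Col9a1, Col9a2 and Col9a3) and Col11a2 passed in no comparison. Between the fractured groups, 0 genes of any of these lists were called.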

How the data were processed

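Total RNA was isolated from tibia tissue of 9 mice, and 100 ng of it was labelled for each GeneChip Mouse Gene 2.0 ST array. The authors normalized the deposited log2 signals; the software was GeneSpring GX, with a filter on present flags. Which algorithm normalized them, which log base was used and which genome build applies is not given in the sources used here; log2 was inferred from how far the values range. The table used had 24367 rows and 22354 gene symbols. Every row was also found in a deposited table of 41345 probe sets, in which the replicate numbers of the Active and Resting arrays are ordered differently although the groups match. Replicate numbers here are those of the first table, and 0 columns were left unmapped. The study speaks both of pooled RNA and of individual mice, so a p-value here reflects the spread between 9 RNA samples, which may be technical. Arrays give no depth, and their small number bounds how exact a value can be.

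All 9 arrays entered a single limma 3.58.1 model (lmFit, then eBayes; R 4.3.3) that left 6 residual degrees of freedom, and Benjamini-Hochberg adjustment took in every row. The 95% intervals are from the moderated fit. The members and lists were chosen with earlier results of these data known. Beside the 10 genes, 10 lists of cartilage genes and 8 lists of cell type markers were read; 163 of their 165 genes had a row. Named from each list are the genes called in both comparisons with the Control group or, where fewer than 2 were, the 2 with the smallest p; other named list genes were chosen after their values were seen. Genes of similar course were the 3 with the highest Pearson correlation among rows with an SD over arrays of at least 0.3, for genes whose group means span at least 1 log2 unit. Promoter windows were copied from RefSeq (GRCm38.p6).

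Each result was recomputed from the probe set table, with the methods' t-test, from just the 6 arrays compared, without the dimmest 40% of rows, after median centring or quantile normalization, with array weights, with an intensity trend, with replicate numbers as a block, from averaged rows per gene, with each array left out, and at an unadjusted p under 0.05 with at least 1.5-fold. A block built on the other numbering and the mean of both fractured groups against Control were added after the data were seen. Replicate numbers were checked for pairing: same-numbered arrays of different groups had deviations that correlated between -0.252 and 0.166, so the numbers were not taken as pairs. The model was tested on simulated data; plots were made in Python 3.11.15 (matplotlib 3.10.9).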

Additional observations from a re-analysis of the deposited data

How the results depend on the processing

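The count of called cartilage genes stayed within 1.5 times its value under all alternatives except in Resting against Control. There it was 4 (2 higher and 2 lower) with array weights. With the methods' t-test it was 1 (0 higher and 1 lower), at an adjusted p under 0.05. With single arrays left out, the count ran from 2 to 3 for Active against Control and for Resting against Control and was 0 to 0 for Active against Resting. The replicate block, with the numbers of either table, gave 2, 2 and 0 called genes in the 3 comparisons; same-numbered arrays did not deviate together (1 of 9 pairs above 0.1 in 1 table and 3 of 9 in the other), and the block changed no call of the 10 genes. Among the recomputed list genes, Frzb lost its call in Active against Control with the block (adjusted p = 0.053 from limma). Col2a1 lost its call in Resting against Control with the block on the numbers of the probe set table (adjusted p = 0.067 from limma). Sox6 passed in both comparisons with Control under every alternative run, and Chad under all but the methods' t-test in Resting against Control (adjusted p = 0.10). Sox9 and Acan lie near the threshold. Sox9 passed in Resting against Control with array weights, with low rows dropped, with the mean of the rows and with only 6 arrays (adjusted p = 0.032, 0.034, 0.049 and 0.043 from limma), and in Active against Control with low rows dropped (0.046) or without Active replicate 3. Acan passed in Resting against Control with array weights (0.64, adjusted p = 0.036 from limma) or without Resting replicate 2.

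Signs turned only for differences that did not pass. In Active against Control, Comp became 0.033 with array weights and 0.025 with quantile normalization, and with single arrays left out Comp ran from -0.14 to 0.068, Sox5 from -0.12 to 0.043, Matn1 from -0.29 to 0.057 and Matn3 from -0.16 to 0.084. In Resting against Control, single arrays left out gave -0.049 to 0.11 for Sox5 and -0.090 to 0.25 for Matn1. In Active against Resting, Sox6 became 0.0074 with array weights and ran from -0.16 to 0.12 with single arrays left out, Sox9 from -0.17 to 0.082, Matn3 from -0.021 to 0.28 and Chad from -0.65 to 0.082. The causes were not tested. Of the values of the recomputed list genes under the alternatives, 1192 kept their side of the threshold, 91 lost it, 1 gained it and 0 turned. Matn1 was dropped by the filter on low rows.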
